A study of Mus musculus with 6 samples.

Results

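The Hedgehog pathway genes described here are 9 listed genes, Gli1, Gli2, Gli3, Ptch1, Smo, Hhip, Sufu, Gas1 and Boc, found by symbol among the 55471 genes of the deposited table. All 9 were present. They were measured by sequencing of polyA RNA in 3 libraries labelled Ranbp2 KO and 3 labelled WT, all of the mouse line 10T1/2. These are embryonic fibroblasts, and neither group received a treatment. The KO cells were made with CRISPR/Cas9, and the WT cells are the same line. Whether 1 edited clone or several gave the KO libraries is not stated. The libraries of a group are called biological replicates without further detail, so the p-values reflect the spread between libraries.

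In the vertebrate pathway, Ptch1 is the receptor that binds Hedgehog ligands and, when unbound, keeps the membrane protein Smo inactive. Active Smo acts at the primary cilium and releases the Gli transcription factors from Sufu. Gli2 is the main activator, Gli3 acts mostly as a repressor in its shortened form, and Gli1 is itself switched on by the pathway. Ptch1 and Hhip, which binds and sequesters the ligands at the surface, are also target genes and dampen the signal. Gas1 and Boc are co-receptors that help ligand reach Ptch1. In mesenchymal cells the pathway is best known for patterning of limb and skeleton and for bone and cartilage formation.

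Ptch1 and Hhip are both textbook Gli targets and showed large differences of opposite sign, so the bases before a start site of each are shown. The 250 bases before the start were taken from RefSeq, build GRCm38.p6, minus strand, written 5′ to 3′. The Ptch1 stretch, chr13:63565736-63565985, lies inside the gene before an internal start. The Hhip stretch is chr8:80058009-80058258.
Ptch1: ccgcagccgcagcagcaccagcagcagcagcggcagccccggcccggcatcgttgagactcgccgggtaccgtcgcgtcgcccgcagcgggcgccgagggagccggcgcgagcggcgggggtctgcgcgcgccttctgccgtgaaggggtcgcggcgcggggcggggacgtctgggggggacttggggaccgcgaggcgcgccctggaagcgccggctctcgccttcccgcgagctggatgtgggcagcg
Hhip: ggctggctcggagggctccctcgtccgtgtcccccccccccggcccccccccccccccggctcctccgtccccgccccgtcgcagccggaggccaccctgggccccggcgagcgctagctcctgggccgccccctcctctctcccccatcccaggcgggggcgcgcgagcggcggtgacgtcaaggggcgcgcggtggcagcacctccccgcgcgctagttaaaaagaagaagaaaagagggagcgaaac
These stretches are rich in G and C, at 78.4% for Ptch1 and 76% for Hhip. The Gli consensus GACCACCCA was searched on both strands in windows of 300 bases, reaching 50 bases past the start. It was found in 0 of the windows of the 7 members that had one (Gli1 and Boc had none in the table) and in 0.253% of all 32851 promoter windows. No letters are in capitals because no match was found, which says only that these letters are not in these windows.

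Ranbp2, the targeted gene, was not lower in the KO-labelled libraries, at 294, 288.9 and 292.9 CPM, against 219.8, 250.1 and 249.0 CPM in WT libraries. CPM is the count level after scaling of each library to its size with trimmed means (TMM). The log2 difference was 0.28 (SE 0.07, adjusted p 0.012 by edgeR), so the gene counts do not show the edit and the libraries are called KO-labelled. The submitters state that they examined the deletion by qPCR, western blot and staining, which were not analysed here. Library totals ran from 32072817 to 39378190 expected counts in the KO-labelled group and from 41354198 to 46321967 in the WT group. Of 9 fibroblast markers tested, 4 rose and 3 fell, and their summed level was 14800 to 16600 CPM in KO-labelled and 14800 to 17900 CPM in WT libraries. Vim was the highest of them, at 5340 CPM in KO-labelled and 5330 CPM in WT libraries. Summed chondrocyte markers (highest Col2a1) were at 1130 to 1260 CPM in KO-labelled and 878 to 1090 CPM in WT libraries, and of 3 tested 2 rose and 1 fell. Smooth muscle markers (highest Acta2) were at 2060 to 2290 CPM in KO-labelled and 2980 to 3300 CPM in WT libraries, and 2 of 3 tested fell. For these 3 lists, the background is that 38.9% of all genes tested were called (17.6% rose and 21.3% fell). The remaining lists were low. Osteoblast markers (highest Runx2) summed to 33.2 to 39.6 CPM in KO-labelled and 59.9 to 60.7 CPM in WT libraries, and endothelial ones (highest Tek) to 20.9 to 24.7 CPM in KO-labelled and 35.3 to 39.5 CPM in WT libraries. Epithelial markers (highest Cdh1) summed to 6.06 to 8.95 CPM in KO-labelled and 1.88 to 2.53 CPM in WT libraries, and neuronal and glial ones (highest Tubb3) to 2.04 to 2.3 CPM in KO-labelled and 14.8 to 16.8 CPM in WT libraries. In each of these 4 lists the highest gene was the one marker above 1 CPM. Markers of macrophages, adipocytes and skeletal muscle (highest Cd68, Adipoq and Myh3) did not sum above 2.74 CPM in any library, with Adgre1, Lep, Myod1 and Myog at 0 counts. The part of these differences in the results below was not tested, and in bulk RNA fewer cells of a type and less RNA per cell cannot be told apart.

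Gli1 and Ptch1 were several-fold higher in KO-labelled than in WT cells, and Hhip, which was weak in WT cells, had no count in any KO-labelled library. The other 6 members differed by less than 1.5-fold: Gli2, Smo and Gas1 were higher and Gli3, Sufu and Boc lower. Thus 5 members rose and 4 fell at an adjusted p below 0.05 (edgeR's quasi-likelihood F test, Benjamini-Hochberg over all genes tested). Hhip is among the 4, but it entered the test only for its WT counts and had to differ. The median log2 difference of the members was 0.34, against 0.01 over all genes. The background was wide: the same test called 38.9% of 15454 genes (17.6% of the 15454 higher and 21.3% lower). The groups did not overlap in 8 of the 9 members, Hhip included, and in 51.4% of all genes tested. A called change of at least 2-fold was rarer, at 10.1% of genes. Gli1 and Ptch1 showed it, and so did Hhip, which had to differ. Whole chromosomes differed in median, from chromosome 13 at -0.28 to chromosome 1 at 0.29 among those of the members, and the part of this in a member's difference was not tested. Each log2 difference below is given as KO-labelled over WT with its standard error (SE), and means are ± SD with n = 3 libraries per group.

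**Figure D1:**
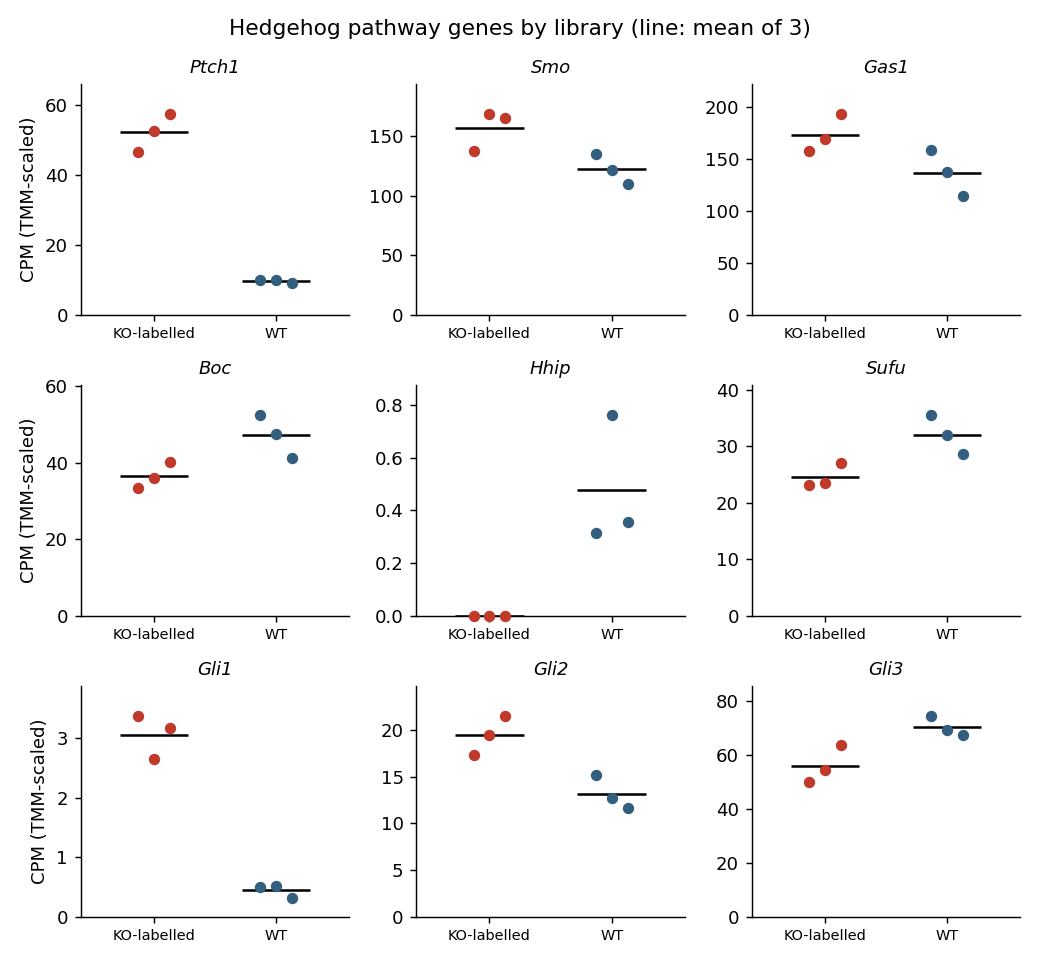
CPM of each Hedgehog pathway gene in 3 KO-labelled (red, left) and 3 WT (blue, right) libraries, with a line at the mean and each vertical axis starting at 0. The groups are apart in every panel but that of Gas1, and the gap is widest for Ptch1 and Gli1, while Hhip lies at 0 in all KO-labelled libraries.

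Ptch1 (ENSMUSG00000021466, chr13:63508328-63573598, minus strand), the receptor and feedback target, stood at 46.6, 52.5 and 57.5 CPM in KO-labelled libraries, against 10.0, 9.95 and 9.03 CPM in WT libraries. Every KO-labelled value was several times every WT value. The means were 52.2 ± 5.43 and 9.67 ± 0.551 CPM, a log2 difference of 2.43 (SE 0.10, adjusted p 1.09e-07 by edgeR), or 5.40-fold. Only 2.97% of genes tested differed by more in either direction. The genes tested on chromosome 13 had a median log2 difference of -0.28, and with that median taken off, Ptch1 was 2.72 higher.

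Smo (ENSMUSG00000001761, chr6:29735503-29761365, plus strand), the membrane protein that Ptch1 restrains, stood at 137, 169 and 165 CPM in KO-labelled libraries, against 135, 121 and 110 CPM in WT libraries. The lowest KO-labelled library was only just above the highest WT library. The log2 difference was 0.36 (SE 0.10, adjusted p 0.0173 by edgeR). Chromosome 6 had a median of 0.17, and the call was lost with that median taken off (0.20, adjusted p 0.167 by edgeR). It was also lost without KO-labelled library 2 or 3 or WT library 2 or 3, with adjusted p by edgeR of up to 0.069. The ratio of Ptch1 to Smo in CPM, not corrected for length, was 0.339, 0.311 and 0.349 in KO-labelled libraries, against 0.0743, 0.082 and 0.0825 in WT libraries.

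The 2 co-receptors differed in opposite directions. Gas1 (ENSMUSG00000052957, chr13:60174405-60177365, minus strand), a membrane-anchored protein first known as a growth arrest gene, stood at 157, 170 and 194 CPM in KO-labelled libraries, against 158, 138 and 115 CPM in WT libraries. Its groups overlapped, with WT library 1 above KO-labelled library 1. The log2 difference of 0.34 (SE 0.12) had an adjusted p of 0.0447 by edgeR, which was lost without KO-labelled library 2 or 3 or WT library 2 or 3 (0.0854 to 0.154). With the median of chromosome 13 taken off, the difference was 0.63 (adjusted p 0.00298 by edgeR).

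Boc (ENSMUSG00000022687, chr16:44485049-44558897, minus strand), a surface protein of the immunoglobulin family, stood at 33.3, 36 and 40.1 CPM in KO-labelled libraries, against 52.5, 47.5 and 41.3 CPM in WT libraries. The groups did not overlap, though KO-labelled library 3 was just below WT library 3. The log2 difference was -0.37 (SE 0.10, adjusted p 0.0183 by edgeR), and -0.36 with the median of chromosome 16 taken off. The call was lost without KO-labelled library 1 or 2 or WT library 2 (adjusted p 0.0563 to 0.0643 by edgeR). Within each library Gas1 had 4.72, 4.72 and 4.84 CPM for each CPM of Boc in KO-labelled cells, against 3.02, 2.89 and 2.78 in WT cells, a ratio that varied less between libraries than either gene.

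Hhip (ENSMUSG00000064325, chr8:79965851-80058006, minus strand), the surface antagonist that binds Hedgehog ligands, had 0, 0 and 0 counts in KO-labelled libraries, against 13, 35 and 15 counts in WT libraries. WT levels were 0.313, 0.762 and 0.357 CPM, so the gene was near the lower limit of measurement and passed the count filter through the WT group alone. A total of 0 counts in the KO-labelled libraries allows a level of up to 0.0276 CPM (3 counts over the group, counting error only). Against that floor Hhip was at least 17.6-fold lower in KO-labelled cells. Because the filter admitted it for its WT counts, its test is not used as support. Ptch1 and Hhip, which both damp the pathway, thus differed in opposite directions. Among 78 other genes tested within 5 Mb of Hhip the median log2 difference was 0.02, with 8 higher and 17 lower. Over all genes tested, 17.6% were higher and 21.3% lower.

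Sufu (ENSMUSG00000025231, chr19:46396896-46488804, plus strand), the cytoplasmic protein that holds Gli factors back, stood at 23.2, 23.5 and 27.1 CPM in KO-labelled libraries, against 35.6, 31.95 and 28.6 CPM in WT libraries. All KO-labelled values were below all WT values, though KO-labelled library 3 came close to WT library 3. The log2 difference was -0.38 (SE 0.10, adjusted p 0.0119 by edgeR). The median of chromosome 19 was -0.19, and with it taken off the difference was -0.20 (adjusted p 0.15 by edgeR), so the call was lost. It was also lost without KO-labelled library 2 (adjusted p 0.0502 by edgeR).

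Gli1 (ENSMUSG00000025407, chr10:127329882-127341974, minus strand), the Gli factor that is made when the pathway is active, had 129, 103 and 99 counts in KO-labelled libraries, against 21, 24 and 13 counts in WT libraries. Its level was 3.37, 2.64 and 3.16 CPM in KO-labelled libraries, against 0.506, 0.522 and 0.309 CPM in WT libraries. The gene was weak in both groups, and the groups were far apart. The log2 difference was 2.77 (SE 0.25, adjusted p 2.48e-05 by edgeR), or 6.80-fold. In 2.4% of genes tested the difference was larger in either direction. Arhgap9 overlaps the end of Gli1 on the opposite strand and had 53, 40 and 50 counts in KO-labelled libraries, against 6, 8 and 8 in WT libraries. It passed the count filter only through the KO-labelled group, so its test is not given. Arhgap9 was named after its values were seen. It was the sole gene among 100 others tested within 5 Mb that was as high as Gli1. The pair overlaps only from chr10:127329882 to chr10:127329943, while the merged exons of Gli1 span 4995 bases. Since the strand setting of the counting is not given in the sources used here, reads of the pair cannot be told apart in that stretch.

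Gli2 (ENSMUSG00000048402, chr1:118834132-119053619, minus strand), the main activator, stood at 17.3, 19.4 and 21.5 CPM in KO-labelled libraries, against 15.2, 12.7 and 11.6 CPM in WT libraries. The groups did not overlap, and the log2 difference was 0.56 (SE 0.12, adjusted p 0.00436 by edgeR). Genes on chromosome 1 were 0.29 higher in median, and with that taken off the difference of Gli2 was 0.27 and no longer called (adjusted p 0.104 by edgeR). Leaving out any single library did not end the call without that step (adjusted p at most 0.0236 by edgeR).

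Gli3 (ENSMUSG00000021318, chr13:15463235-15730026, plus strand), mainly a repressor, stood at 49.95, 54.5 and 63.5 CPM in KO-labelled libraries, against 74.3, 69.1 and 67.3 CPM in WT libraries. KO-labelled library 3 was close to WT library 3, but the groups did not overlap. The log2 difference was -0.33 (SE 0.09, adjusted p 0.0209 by edgeR). This was about the median of its chromosome, and with that median taken off only -0.04 was left (adjusted p 0.759 by edgeR). Of 49 other genes tested within 5 Mb of Gli3, 25 fell and 2 rose (over all genes tested, 21.3% fell and 17.6% rose). Their median was -0.45. The call of Gli3 was lost without KO-labelled library 1 or 2 or WT library 1 or 2 (adjusted p 0.0558 to 0.0748 by edgeR).

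**Figure D2:**
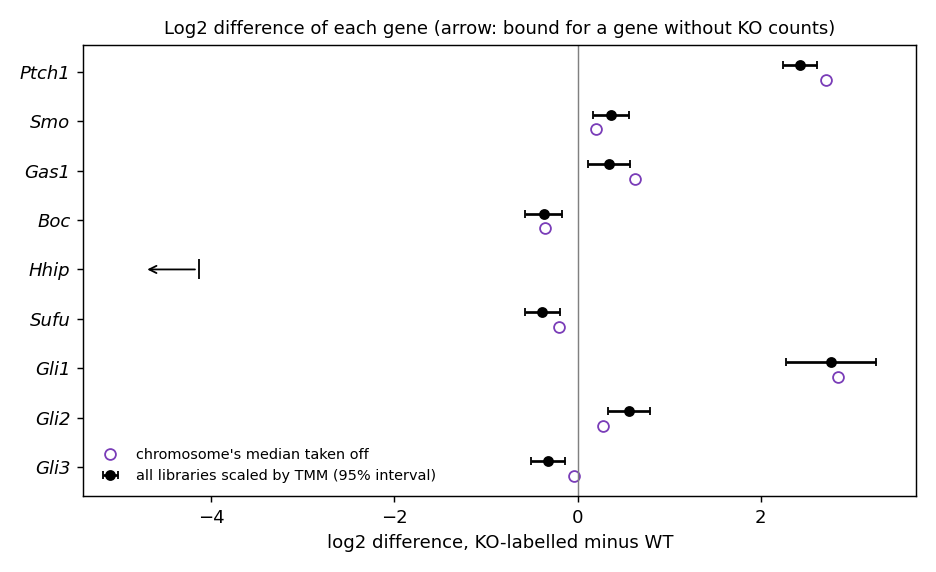
Log2 difference of each gene, KO-labelled minus WT (filled points with 95% intervals), and the value with the median of the gene's chromosome taken off (open circles). Ptch1 and Gli1 stay far above 0 on both scales, Gli3 moves to -0.04, and the arrow marks Hhip at or beyond its bound of -4.14.

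Gli1 and Gli2 made up more of the Gli family level in KO-labelled than in WT libraries. Per kilobase of exon, Gli1 made up 8.02%, 5.85% and 6.1% of the summed level of the 3 Gli genes in KO-labelled libraries, against 1.01%, 1.14% and 0.706% in WT libraries. All 3 KO-labelled shares were above all 3 WT shares, and an exact two-sided permutation test gave p = 0.1, the smallest that 3 against 3 libraries allow. Gli2 held 30.5 ± 0.709% of the family level in KO-labelled and 20.5 ± 1.39% in WT libraries (SD, n = 3 each). Gli3 held most of it in every library, 62.9 ± 0.919% in KO-labelled and 78.6 ± 1.52% in WT libraries. The ratio of Gli2 to Gli3 counts was 0.347, 0.357 and 0.338 in KO-labelled libraries, against 0.205, 0.184 and 0.172 in WT libraries. Shares and ratio were not corrected for chromosome medians, at 0.29 for chromosome 1 of Gli2 and -0.28 for chromosome 13 of Gli3. With these taken off, neither Gli2 (0.27, adjusted p 0.104 by edgeR) nor Gli3 (-0.04, adjusted p 0.759 by edgeR) was called. The part of the chromosome medians in the shares was not tested.

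**Figure D3:**
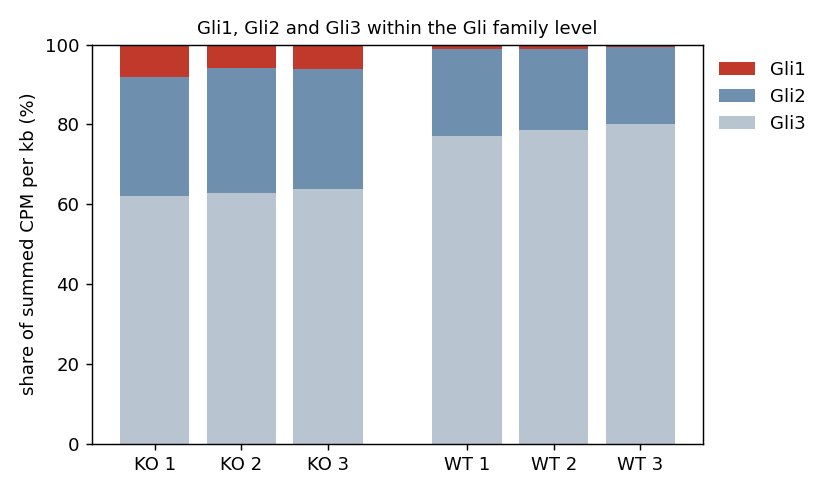
Share of Gli1, Gli2 and Gli3 in the summed CPM per kilobase of exon of the 3 genes, in percent, for 3 KO-labelled and 3 WT libraries. Gli1 takes between 5.85% and 8.02% in KO-labelled and between 0.706% and 1.14% in WT libraries, and Gli3 is the largest share in all 6.

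Levels between genes were compared per kilobase of exon (all annotated exons of a gene merged). In KO-labelled cells Gas1 was highest at 58.7 ± 6.24 CPM per kilobase, followed by Smo at 27.9 ± 3.03, Boc at 8.19 ± 0.760 and Gli3 at 5.84 ± 0.719. Ptch1 at 3.68 ± 0.383, Sufu at 3.19 ± 0.282 and Gli2 at 2.83 ± 0.301 followed, and neighbours among these 3 overlapped between libraries. Gli1 came next at 0.612 ± 0.0746 and Hhip was at 0. In WT cells the order was Gas1, Smo, Boc, Gli3, Sufu, Gli2, Ptch1, Gli1 and Hhip, and the last 2 were the only neighbours whose libraries overlapped. Ptch1 thus ranked between Gli3 and Sufu in KO-labelled cells and between Gli2 and Gli1 in WT cells, where it stood at 0.682 ± 0.0389 CPM per kilobase. With the longest transcript as length, Sufu was above Ptch1 in KO-labelled cells.

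**Figure D4:**
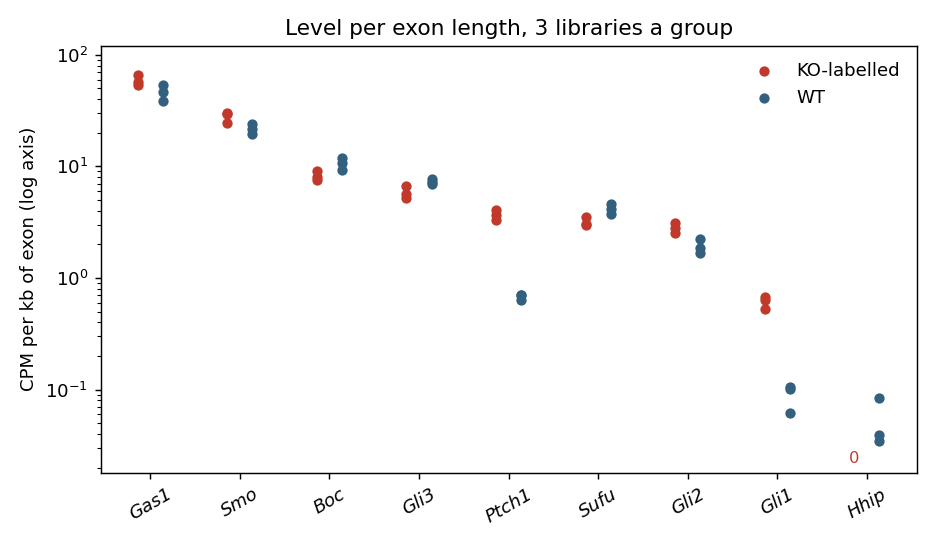
CPM per kilobase of exon of each gene on a log axis, 3 KO-labelled (red, left of each pair) and 3 WT (blue) libraries, ordered by the KO-labelled mean. Levels reach from 58.7 for Gas1 to 0.612 for Gli1 in KO-labelled cells, and the printed 0 marks Hhip without counts.

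The spread within groups was shared between members. Of the 8 members with counts in both groups, 7 were lowest in KO-labelled library 1 and 6 highest in KO-labelled library 3, while 8 were lowest in WT library 3 and 7 highest in WT library 1. Over all genes tested, 39.7% were lowest in KO-labelled library 1, 30.6% highest in KO-labelled library 3, 39% lowest in WT library 3 and 39.4% highest in WT library 1. Members are therefore not independent of each other within a group. After centring of log2(CPM + 0.5) on each gene's mean over 6 libraries, Sufu and Boc lay closest together, with a root mean square distance of 0.03. Smo and Gas1 were 0.09 apart, and Gli1 had Ptch1 as its nearest member at 0.28. Across 9137 other genes of at least 10 CPM, Fgfr3 (distance 0.0761), Cacna1g (0.108) and Col27a1 (0.15) were nearest to Gli1. Col6a3 (0.113), Pawr (0.124) and Sorbs2 (0.126) were nearest to Ptch1. These distances rest on 6 libraries in 2 groups and depend on the 0.5 CPM that was added, which is about the WT level of Gli1 and of Hhip.

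Some members share their locus with other annotated genes. Besides Arhgap9 at Gli1, Gas1 overlaps the lincRNA gene Gm48488 on the opposite strand, which had 159 counts over the KO-labelled and 160 over the WT libraries. Gli3 overlaps Gm6556, also on the opposite strand, with 59 counts over the KO-labelled and 123 over the WT libraries. These are small beside Gas1, with 18709 counts over the KO-labelled and 17714 over the WT libraries, and Gli3, with 6024 over the KO-labelled and 9086 over the WT libraries. Near Ptch1 the sole gene as high among 97 others tested within 5 Mb was Gm49391, named after its values were seen. Its level was 0.862, 0.565 and 2.68 CPM in KO-labelled libraries, against 0, 0 and 0.666 CPM in WT libraries, so the groups overlapped. Gm49391 passed the count filter only through the KO-labelled group, so its test is not given.

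The ligands were absent or close to it. Shh had 0 counts in all 6 libraries, which allows a level of up to 0.0126 CPM (3 counts over 6 libraries, counting error only). Ihh had 6, 8 and 8 counts in KO-labelled and 2, 4 and 5 in WT libraries, and Dhh had 4, 4 and 2 counts in KO-labelled and 4, 1 and 3 in WT libraries, all too few to be tested. Of 8 genes of ligands, their lipid attachment and release, 4 were tested, of which 1 fell and 3 did not pass (25% called against 38.9% of all genes). The one that fell was Disp1, which exports the lipid-bearing ligand, at 56.4 CPM in KO-labelled and 92.5 CPM in WT libraries on average (log2 difference -0.71, SE 0.08, adjusted p 7.92e-05 by edgeR). Hhat, the acyltransferase of the ligands, differed by -0.21, and the ligand carriers Scube2 and Scube3 by -0.25 and -0.49. With the chromosome median taken off, Hhat (-0.49, adjusted p 0.0096 by edgeR) and Scube3 (-0.76, adjusted p 0.0133 by edgeR) were called lower.

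Among 14 other surface and ciliary membrane regulators, 11 were tested, of which 3 rose, 3 fell and 5 did not pass (54.5% called against 38.9% of all genes), with a median log2 difference of 0.09. Gpc6, a glypican, rose by 0.70 (SE 0.08) and Arrb1, a beta-arrestin, by 0.46 (SE 0.09). Grk2, a receptor kinase that acts on Smo, fell to 78.2 CPM in KO-labelled libraries, against 99.6 CPM in WT libraries, a call that was lost with the chromosome median taken off (-0.16, adjusted p 0.112 by edgeR). Lrp2, the large endocytic receptor megalin, had 16 counts over the KO-labelled and 159 over the WT libraries. It is among the 3 that fell, but passed the count filter only through the WT group, so its test is not given.

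Kinases and turnover factors of Gli proteins differed little. Of 18 tested, 0 rose, 2 fell and 16 did not pass, 11.1% called against 38.9% of all genes, with a median of -0.08 and a range of -0.38 to 0.17. Prkar1a, a regulatory subunit of protein kinase A and the most abundant of the list, fell by 0.31 (SE 0.07) on the log2 scale. Gsk3a, a kinase that acts on Gli proteins, fell by 0.25 (SE 0.07). Prkaca, a catalytic subunit, differed by -0.18 and Stk36, the relative of the fly kinase Fused, by -0.38, without passing the test. With the chromosome median taken off, Stk36 was called lower (-0.67, adjusted p 0.00562 by edgeR) and the call of Gsk3a was lost (-0.19, adjusted p 0.0657 by edgeR).

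Genes of the primary cilium, where the pathway is read, were called in 26.9% of 52 cases, against 38.9% of all genes. Of 34 genes of ciliary transport, 7 rose, 5 fell and 22 did not pass, with a median of 0.04. Wdr35, of the retrograde transport complex, rose most, with 94.3 CPM in KO-labelled and 52.6 CPM in WT libraries (log2 difference 0.84, SE 0.07, adjusted p 2.21e-05 by edgeR). Ift20, of the anterograde complex, rose by 0.55 (SE 0.08) and Kifap3, of the kinesin-2 motor, by 0.22 (SE 0.07). With the median of chromosome 1 taken off, the direction of Kifap3 turned and its call was lost (-0.07, adjusted p 0.498 by edgeR). The motor subunit Kif3b and the lipid phosphatase Inpp5e fell by 0.37 (SE 0.07) and 0.52 (SE 0.09). Of 18 genes of the transition zone at the base of the cilium and of the basal body, 0 rose, 2 fell and 16 did not pass. Those that fell were Cep164, by 0.43 (SE 0.10), and Tctn1, by 0.44 (SE 0.12), while Cep290, Tctn3 and Cc2d2a differed by 0.21, 0.20 and 0.18 without passing. With the chromosome median taken off, the call of Cep164 was lost (-0.26, adjusted p 0.0674 by edgeR), while Cep290 (0.30, adjusted p 0.0175 by edgeR) and Tctn3 (0.39, adjusted p 0.00823 by edgeR) were called higher.

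Further genes linked to Gli factors in other settings, which also answer to other signals, mostly fell or did not pass the test. Of 20 listed, 14 were tested, of which 1 rose, 7 fell and 6 did not pass (57.1% called against 38.9% of all genes), with a median of -0.45 against 0.01 over all genes. The 7 include a gene that passed the count filter only through the WT group, so its call is not used as support. Bcl2, a survival gene and the member that rose, was named after its value was seen and stood at 19.4, 17.9 and 18.05 CPM in KO-labelled and 14.1, 11.8 and 12.8 CPM in WT libraries. With the median of chromosome 1 taken off, its difference was 0.23 and its call was lost (adjusted p 0.0717 by edgeR). The forkhead factor gene Foxf2 stood at 6.92, 6.65 and 7.28 CPM in KO-labelled libraries, against 15.2, 15.6 and 14.8 CPM in WT libraries, a log2 difference of -1.13 (SE 0.09, adjusted p 9.97e-06 by edgeR). Bmp4, a bone morphogenetic protein, fell by 1.17 (SE 0.07), the cell cycle gene Ccnd1 by 0.64 (SE 0.08) and the guidance cue gene Ntn1 by 0.74 (SE 0.09) on the log2 scale. Sfrp1, a secreted Wnt inhibitor, had 138 counts over the KO-labelled and 16624 over the WT libraries (log2 difference -6.66, SE 0.12). No gene of the 6 lists rose by more than 0.84, the value of Wdr35, while Ptch1 rose by 2.43 and Gli1 by 2.77. Over all 6 lists 11 of 99 genes tested rose and 20 fell, 31.3% called against 38.9% of all genes. The 20 include Lrp2 and the gene of the last list that passed the filter only through the WT group.

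**Figure D5:**
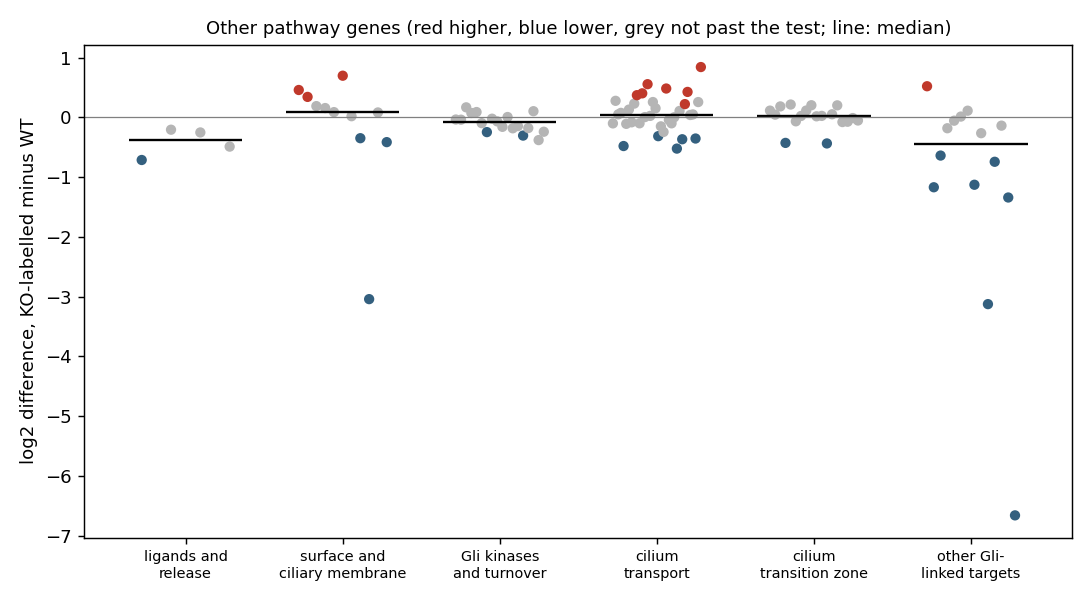
Log2 difference, KO-labelled minus WT, of each tested gene in 6 lists of other Hedgehog pathway genes (red rose, blue fell, grey did not pass, black line the list's median). Most genes lie within 1 of 0, and the list of other Gli-linked targets has the lowest median, -0.45, and the lowest gene, Sfrp1 at -6.66.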

How the data were processed

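The authors deposited expected counts per Ensembl gene, estimated by RSEM on GRCm38 after cutadapt, per the submitters' processing notes. The sources used here name no aligner, version or strand setting. Of the values, 17.9% are not whole, because RSEM divides shared reads between genes. Symbols, positions and exon lengths came from GENCODE M21 (same build), which matched 55230 of 55471 identifiers. Counts were rounded, filtered with filterByExpr (minimum count 10, total 15), scaled with TMM and tested with edgeR 4.0.16 in R 4.3.3 (quasi-likelihood F test, two-sided, genotype as the only term, Benjamini-Hochberg over 15454 genes, threshold 0.05). DESeq2 1.42.0, other scalings and filters, a replicate block, omission of each library and an offset by chromosome median (chromosomes with at least 20 genes tested) were the alternatives. The code was tested on simulated counts. The members, lists and tests were chosen with earlier results of these data known. Named genes were the 9 members, Ranbp2, the 4 lowest adjusted p-values and the highest CPM of each other list, the 3 genes nearest to Gli1 and to Ptch1, and the highest marker of each cell type; exceptions are stated. One gene of the other pathway lists is not reported here.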

Additional observations from a re-analysis of the deposited data

How the results depend on the processing

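Gli1 and Ptch1 kept their direction and their call under all 13 alternatives, with log2 differences of 2.56 to 2.90 for Gli1 and 2.36 to 2.72 for Ptch1. No member changed sign. Hhip, admitted by its WT counts alone, was left out by a filter of 1 CPM in 3 libraries, and its calls elsewhere are not used as support. The number of members called was 9 with size factors of DESeq2, library size alone, the DESeq2 test or no count filter. Over all genes the calls were 5995, 5731, 5941 and 6652 in that order, against 6011 in the main fit. With at least 1 CPM in 3 libraries 8 members and 5538 genes were called. With the chromosome median as offset Gli1, Ptch1, Gas1 and Boc kept their calls. The count over all genes was not taken there, so these calls have no background to be read against. When a library was left out, 4 to 8 members and 4372 to 6077 genes were called. The lowest were 4 members without KO-labelled library 2 (4741 genes) and 5 without WT library 2 (4372 genes), where fewer samples entered the fit. The offset ended the calls of Gli2 (0.27), Gli3 (-0.044), Smo (0.20) and Sufu (-0.20). Without 1 library the log2 differences ran from -0.43 to -0.25 for Gli3, 0.29 to 0.45 for Smo, -0.47 to -0.30 for Sufu, 0.23 to 0.46 for Gas1 and -0.46 to -0.29 for Boc, each with calls lost. With a replicate block 8 members were called, and Gas1 was not (0.35, adjusted p 0.0824 by edgeR). The numbers did not pair the libraries: deviations of same-numbered libraries correlated at -0.03, -0.11 and -0.10 over genes, and no library correlated best with its own number. Over all genes, 6011 calls became 4994 with the block. The Gli1 share differed by 5.71 percentage points, and by 5.03 to 6.11 without 1 library. Gli1 and Hhip rest on few counts, at most 129 and 35 in a library.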
